A study of Rattus norvegicus with 16 samples.

Results

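Brush border peptidases are the enzymes on the luminal surface of the kidney's proximal tubule that cut filtered peptides. With earlier results of these data known, 8 genes were chosen by name from the 35849 genes of the deposited rat kidney RNA-seq table. All 8 were in the table. They were Ggt1 (ENSRNOG00000047697), Dpep1 (ENSRNOG00000015880), Anpep (ENSRNOG00000014610), Enpep (ENSRNOG00000051854), Dpp4 (ENSRNOG00000030763), Xpnpep2 (ENSRNOG00000004009), Mep1a (ENSRNOG00000011022) and Mep1b (ENSRNOG00000049345). Renal tissue came from male Sprague Dawley rats that were 6 to 8 weeks old at the start, with 4 rats in each of 4 groups. Rats of the normal group received citrate buffer and a normal diet. Rats of the diabetic nephropathy (DN) group received streptozotocin (STZ, a toxin of the insulin-producing beta cell) at 45 mg/kg and a diet rich in glucose and fat, and were kept if blood glucose exceeded 16.7 mmol/L 1 week later. The remaining groups received the same STZ and diet and, in addition, sinomenine (SIN, a plant alkaloid) by gavage once a day for 8 weeks, where DN rats had vehicle, at 20 mg/kg in the first, named SIN (20 mg/kg), and at 40 mg/kg in the other, named SIN (40 mg/kg). STZ and diet were given together, so their effects cannot be told apart, and serial numbers of the libraries ran on within each group, so library order and condition cannot be told apart either.

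The brush border is a dense layer of microvilli, and its peptidases are anchored in the membrane with their active sites facing the tubular fluid. They break filtered peptides and glutathione into amino acids and dipeptides, which transporters of the same membrane take up, and several of them also end the action of peptide hormones such as the angiotensins and kinins. Their activity in urine has long been used as a sign of proximal tubular damage.

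The sequence just before the start of 3 members is shown because Ggt1 and Dpp4 were the members that passed the test in DN over normal, and Anpep is the more abundant of the members whose window held the motif searched. These are the 250 bases before the RefSeq start in build GRCr8, 5′ to 3′ on the gene's strand, at chr20:13095105-13095354 (minus strand) for Ggt1, at chr3:67452423-67452672 (minus) for Dpp4 and at chr1:143195102-143195351 (minus) for Anpep. Capitals mark AGGTCA, the core element bound by nuclear receptors such as PPAR, which reads TGACCT on the other strand.
Ggt1: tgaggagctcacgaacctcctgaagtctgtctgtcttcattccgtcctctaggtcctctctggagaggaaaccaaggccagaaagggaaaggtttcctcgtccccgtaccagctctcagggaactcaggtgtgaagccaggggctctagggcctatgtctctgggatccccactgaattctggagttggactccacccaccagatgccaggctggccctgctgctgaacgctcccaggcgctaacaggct
Dpp4: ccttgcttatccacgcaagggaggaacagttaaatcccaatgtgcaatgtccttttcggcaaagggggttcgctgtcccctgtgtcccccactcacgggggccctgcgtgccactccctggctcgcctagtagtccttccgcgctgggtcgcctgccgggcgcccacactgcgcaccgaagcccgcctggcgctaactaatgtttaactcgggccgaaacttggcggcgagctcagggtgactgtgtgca
Anpep: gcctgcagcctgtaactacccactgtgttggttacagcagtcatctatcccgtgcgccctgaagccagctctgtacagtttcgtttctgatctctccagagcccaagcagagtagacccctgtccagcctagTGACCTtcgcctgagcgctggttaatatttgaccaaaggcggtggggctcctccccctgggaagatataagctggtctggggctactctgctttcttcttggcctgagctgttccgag
In Anpep, TGACCT began 118 bases before the start. Neither Ggt1 nor Dpp4 held the motif in its window. Over all 33469 RefSeq promoters of the same length, 14.1% held AGGTCA on either strand, so a match is a description of these letters only. Among the other members it occurred in Dpep1 (1 match).

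All 8 genes were well measured in every rat. Total estimated counts ran from 19616312 to 25217030 per rat, no member had fewer than 940 counts in any rat, and all 8 passed the filter on low counts in all 6 comparisons. Together they made up between 0.288% and 0.406% of the counts of a rat. Markers of the early proximal tubule, the segment that carries much of the brush border, were detected in all 16 rats and summed to between 4260 and 9011 CPM (counts scaled by library size and TMM factor), so the label of kidney tissue was met. The DN rat with replicate number 3 stood apart in stromal and muscle markers (7 genes), with a summed level of 721 CPM against 247 to 263 in the other DN rats and 205 to 322 in normal rats.

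Per length as deposited, Ggt1 had the highest level of the 8. Its level over 16 rats averaged 507 CPM per kilobase, rank 163 of all genes, and was above that of Dpp4, the next member, in 16 of 16 rats. Dpp4 averaged 189 CPM per kilobase and Anpep 169, and Dpp4 was the higher in 10 of 16 rats only. That count pools the 4 groups. Mean Dpp4 was below mean Anpep in DN rats (150 and 180 CPM per kilobase). It was above in normal (230 and 211), SIN (20 mg/kg) (192 and 142) and SIN (40 mg/kg) rats (184 and 144). The order of these neighbours was not tested. Mep1a followed at 135 CPM per kilobase, below Anpep in 12 rats. Enpep averaged 105 and Xpnpep2 95.6 CPM per kilobase, and the first exceeded the second in 9 of 16 rats. Their order differed by group. Enpep was above Xpnpep2 in every normal rat (means 126 and 93.9) and below it in every DN rat (means 99.1 and 105), without a test of this order. Mep1b stood at 70.4 and Dpep1 at 29.2 CPM per kilobase, and Mep1b exceeded Dpep1 in 16 of 16 rats. These levels rest on the gene length in the deposited table, whose meaning is not given in the sources used here. The length listed for Ggt1 (1344 bases) was the shortest of the 8 and is shorter than the known coding sequence of this gene. The level per length of Ggt1 may therefore be too high by an unknown factor. Its rank and its place as first rest on that length. In plain CPM, which is not set per length, Anpep exceeded Ggt1 in 6 of 16 rats.

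**Figure D1:**
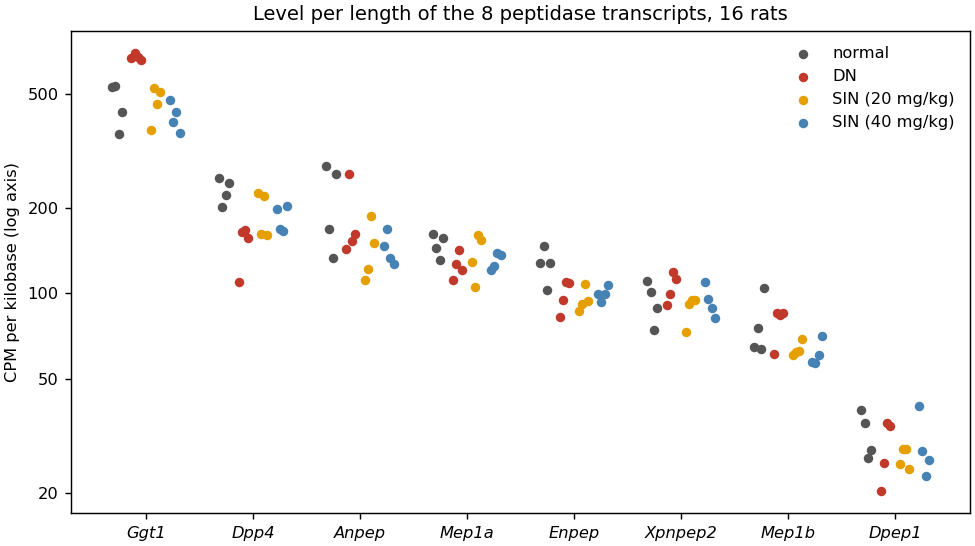
Level of each of the 8 transcripts in CPM per kilobase of deposited gene length (vertical log axis), with 1 point per rat and colours for the 4 groups. Ggt1 lies above all other members in every rat and Dpep1 (mean 29.2) at the bottom, while Dpp4 and Anpep overlap.

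The question put to the 4 groups was whether these transcripts differed between normal and DN kidneys and between DN kidneys with and without SIN. In DN over normal, Ggt1 rose, Dpp4 fell and the other 6 genes did not pass the test (edgeR's quasi-likelihood test, adjusted p under 0.05). The share of all 15775 tested genes that was called was 8.74% higher and 10.8% lower, so 1 member higher and 1 lower of 8 was close to that background. At an unadjusted p under 0.05, 1 member was higher (17.5% of all genes) and 3 were lower (19.4%). No member reached an absolute log2 fold change of 1 with an adjusted p under 0.05, a mark passed by 3.80% of genes. The median log2 fold change of the 8 members was -0.20, against 0.0016 over all genes tested.

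Ggt1 and Dpep1 act in sequence on glutathione. Ggt1 encodes gamma-glutamyltransferase 1, which splits the gamma-glutamyl bond of glutathione outside the cell, and Dpep1 encodes the renal dipeptidase that splits the resulting cysteinylglycine and also leukotriene D4. Ggt1 stood at 714.6, 719.8, 489.2 and 584.3 CPM in the normal rats and at 898.1, 936.6, 911.1 and 884.5 CPM in the DN rats. Every DN rat was above every normal rat, as was so for 11.3% of all genes. With TMM factors the DN rats lay close together (SD 22.2 CPM around a mean of 908, n = 4). Without these factors they lay further apart, at 903.7, 945.0, 877.9 and 798.3 CPM. Ggt1 was higher by a log2 fold change of 0.53 ± 0.13 (SE; adjusted p = 0.0234, edgeR's quasi-likelihood test with Benjamini-Hochberg adjustment). Dpep1 was between 54.5 and 80.0 CPM in the normal and between 41.6 and 72.0 CPM in the DN group. The ranges of Dpep1 overlapped, and its log2 fold change was -0.16, with a 95% interval from -0.58 to 0.26.

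Dpp4, dipeptidyl peptidase 4, removes dipeptides behind proline or alanine and inactivates incretin hormones. Its level was 814.4, 642.0, 706.8 and 778.7 CPM in normal rats and 351.3, 526.7, 534.6 and 501.9 CPM in DN rats. No DN rat reached the lowest normal rat, as was so for 13.0% of all genes, and DN replicate 1 was the lowest of all. Dpp4 fell by 0.62 on the log2 scale (SE 0.15, adjusted p = 0.0223, quasi-likelihood test of edgeR). Xpnpep2, the membrane-bound aminopeptidase P that cleaves before proline and degrades kinins, stood at 385.8, 350.8, 259.4 and 310.6 CPM in normal and at 316.2, 345.3, 415.3 and 390.3 CPM in DN rats. Its groups overlapped, with a log2 fold change of 0.17 and a 95% interval from -0.14 to 0.47.

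Anpep and Enpep encode aminopeptidases N and A, which remove single N-terminal amino acids and process angiotensins in turn, Enpep acting on angiotensin II. Anpep was at 1074, 647.1, 511.5 and 1014 CPM in normal and at 551.3, 1013, 588.5 and 620.2 CPM in DN rats. It was the member with the widest spread over the 16 rats (highest over lowest 2.51), and its interval in DN over normal, from -0.83 to 0.37 on the log2 scale, was the widest of the 8. Enpep was at 487.1, 558.8, 390.8 and 484.0 CPM in normal rats and at 314.1, 361.2, 417.4 and 413.7 CPM in DN rats. A single normal rat, replicate 3, lay within the DN range. The log2 fold change of Enpep was -0.35 ± 0.13 (SE; adjusted p = 0.0886, quasi-likelihood test of edgeR), which did not pass. In the fit of all 16 rats Enpep was called lower in DN (adjusted p = 0.0401, quasi-likelihood test of edgeR), so that 3 members passed there, and over the other alternatives its adjusted p ran from 0.0552 to 0.198.

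Mep1a and Mep1b encode the alpha and beta subunits of meprin, a metalloproteinase very abundant in rodent brush borders, where beta subunits hold the complex in the membrane. Mep1a was at 484.2, 432.8, 390.5 and 469.4 CPM in normal and at 333.2, 378.4, 423.0 and 361.5 CPM in DN rats, with 1 DN rat inside the normal range. Its log2 fold change was -0.25 (unadjusted p = 0.0450, adjusted p = 0.126, quasi-likelihood test of edgeR). Mep1b was at 154.4, 179.6, 151.9 and 248.2 CPM in normal rats and at 145.6, 202.8, 199.7 and 202.6 CPM in DN rats. The fitted difference of Mep1b was 0.03, with an interval from -0.36 to 0.42. Per length, Mep1b stood at 0.401 to 0.664 of Mep1a in normal and 0.549 to 0.704 in DN rats, so the subunit ratio overlapped between the groups. For 10 of the 16 rats the estimated count of Mep1b was not whole, as happens when reads are shared with another gene, and its near copy LOC100911405 was given at most 19.14 counts in a rat, against at least 2614 for Mep1b. The counts of the other 7 members were whole in every rat.

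**Figure D2:**
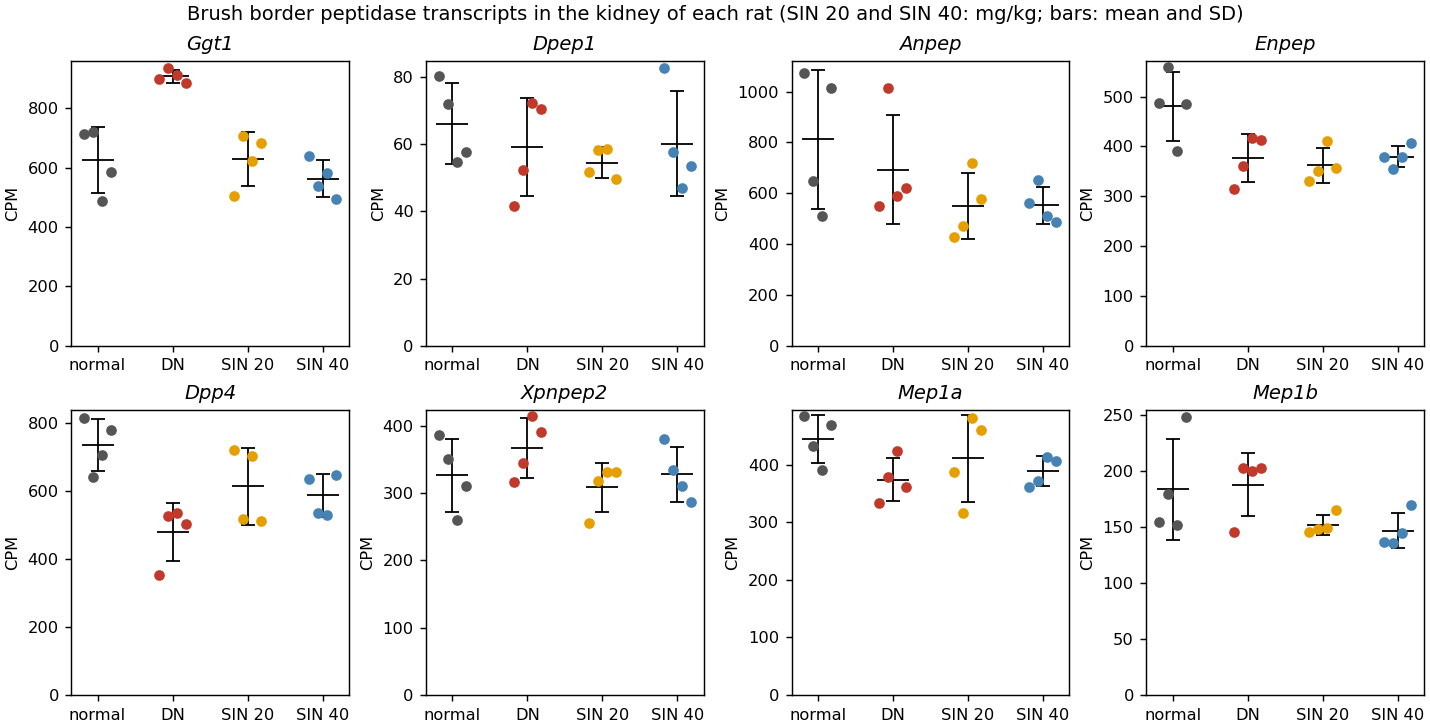
CPM of each member (vertical axes from 0) in the 4 rats of each group, with points for rats in replicate order and black bars for the mean ± SD (n = 4). Ggt1 in the 4 DN rats (884.5 to 936.6 CPM) lies above all other rats, and Dpp4 in the DN rats (351.3 to 534.6 CPM) lies below all normal rats.

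The calls of Ggt1 and Dpp4 were sensitive to single rats. Without normal replicate 3, which was lowest of its group in 7 of 8 members, the log2 fold change was 0.44 for Ggt1 (adjusted p = 0.0529) and -0.64 for Dpp4 (adjusted p = 0.0553), and both calls were lost in edgeR's quasi-likelihood test. Both were also lost without normal replicate 4 (adjusted p = 0.0760 and 0.0689). The call of Dpp4 was lost without normal replicate 1 (adjusted p = 0.0560), and that of Ggt1 without DN replicate 2 (adjusted p = 0.0594). DN replicate 1 was lowest of its group in 7 of 8 members; without it both calls held, at 0.54 and -0.50, and they held without DN replicate 3, the rat with high stromal markers, at 0.53 and -0.68. Whole tissue was sequenced, in which fewer cells of a type and less RNA per cell cannot be told apart.

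Markers of cell types differed in the same comparison, in which 8.74% of all genes were called higher and 10.8% lower. The late proximal tubule list (6 genes, none at 0) summed to 2083 to 2472 CPM in normal and 871 to 1394 CPM in DN rats, and this sum was mostly Slc7a13, which fell by 1.51 on the log2 scale (mean 2068 to 728 CPM). In that list Slc5a1 rose by 0.50, Acsm3 stood at 151 CPM in normal and 328 CPM in DN without passing, and 3 of 6 genes were above 0, with a median of 0.12. The early segment list (7 genes, none at 0) summed to 5725 to 8651 CPM in normal and 4260 to 7776 CPM in DN rats, mostly Slc34a1 (mean 4354 and 4137 CPM). Of its 7 genes 1 was called lower, Slc4a4 (299 to 158 CPM), 2 were above 0, and the median was -0.27. Stromal and muscle markers had a median of 1.08 in DN over normal, with 6 of 7 above 0 and 1 called higher, Col1a1. They summed to 205 to 322 CPM in normal and 247 to 721 CPM in DN rats. Only DN replicate 3 (721 CPM) lay above the normal range. Of 6 tested tubular injury markers 2 were called higher, Havcr1 and Clu, and 1 lower, Vcam1, with a median of 0.97. The list of injury markers summed to 308 to 650 CPM in normal and 583 to 1368 CPM in DN rats. Spp1 had the highest mean level of that list (362 CPM in normal and 637 CPM in DN) and was not called. Krt20 was the gene too low to test. The part of these markers in the results of Ggt1 and Dpp4 was not tested.

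In SIN (20 mg/kg) over DN, no member passed the adjusted test, and neither did any of the 15724 genes (0% higher and 0% lower). Ggt1 and Mep1b were lower at an unadjusted p under 0.05, as were 6.24% of all genes, and no member was higher. DESeq2, the other tool run, called 1 member lower, Ggt1, and 0.611% of all genes. Ggt1 was at 504.2, 707.3, 620.9 and 683.1 CPM in the SIN (20 mg/kg) group. All 4 values were below the 4 DN rats, as was so for 3.98% of all genes, and spanned nearly the same range as the normal rats. The log2 fold change was -0.53 ± 0.12 (SE; unadjusted p = 0.00124, adjusted p = 0.270, quasi-likelihood test of edgeR, adjusted p = 0.00371 by DESeq2).

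In SIN (40 mg/kg) over DN, edgeR again called no member and none of the 15530 genes (0% higher, 0% lower). Ggt1 and Mep1b were again lower at an unadjusted p under 0.05 (7.21% of all genes), and DESeq2 called 1 member lower, Ggt1 (1.28% of all genes). Ggt1 was at 639.4, 538.6, 582.8 and 493.1 CPM. The highest of these values lay under the lowest DN value, as was so for 4.91% of all genes. The log2 fold change of -0.67 ± 0.10 (SE) had an unadjusted p of 6.27e-05, rank 6 of all genes tested, an adjusted p of 0.148 in the quasi-likelihood test of edgeR and an adjusted p of 4.62e-08 by DESeq2. Both SIN contrasts and DN over normal share the same 4 DN rats, so the values of Ggt1 in them are not independent of each other. Stromal and muscle markers had medians of -1.25 and -1.13 in SIN over DN at 20 and 40 mg/kg, with 0 of 7 above 0 at either dose, early segment markers of 0.35 and 0.67, late segment markers of -0.17 and -0.51 and injury markers of 0.31 and 0.10. The stromal list summed to 175 to 254 CPM at 20 mg/kg and to 207 to 248 CPM at 40 mg/kg. In DN rats its sum was 721 CPM in replicate 3 and 247 to 263 CPM in the others. No gene of these marker lists was called, and their part in the result of Ggt1 was not tested.

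The other members differed less between SIN and DN. Mep1b was at 145.0, 148.1, 148.8 and 165.2 CPM in the SIN (20 mg/kg) group and at 136.9, 135.5, 144.1 and 169.0 CPM in the SIN (40 mg/kg) group. Its DN rat with replicate number 1 (145.6 CPM) lay among the SIN rats and the other 3 DN rats lay above all of them. The log2 fold changes over DN were -0.30 (adjusted p = 0.300) and -0.34 (adjusted p = 0.243), both in the quasi-likelihood test of edgeR. Dpp4 was at 720.4, 517.1, 703.7 and 511.4 CPM with SIN (20 mg/kg) and at 635.3, 536.5, 529.4 and 647.0 CPM with SIN (40 mg/kg), so SIN rats lay both inside the DN range and above it. Its differences from DN, 0.36 (95% interval -0.02 to 0.74) and 0.31 (-0.02 to 0.64), did not pass. For Anpep, Enpep, Xpnpep2, Mep1a and Dpep1 the intervals of both contrasts included 0.

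**Figure D3:**
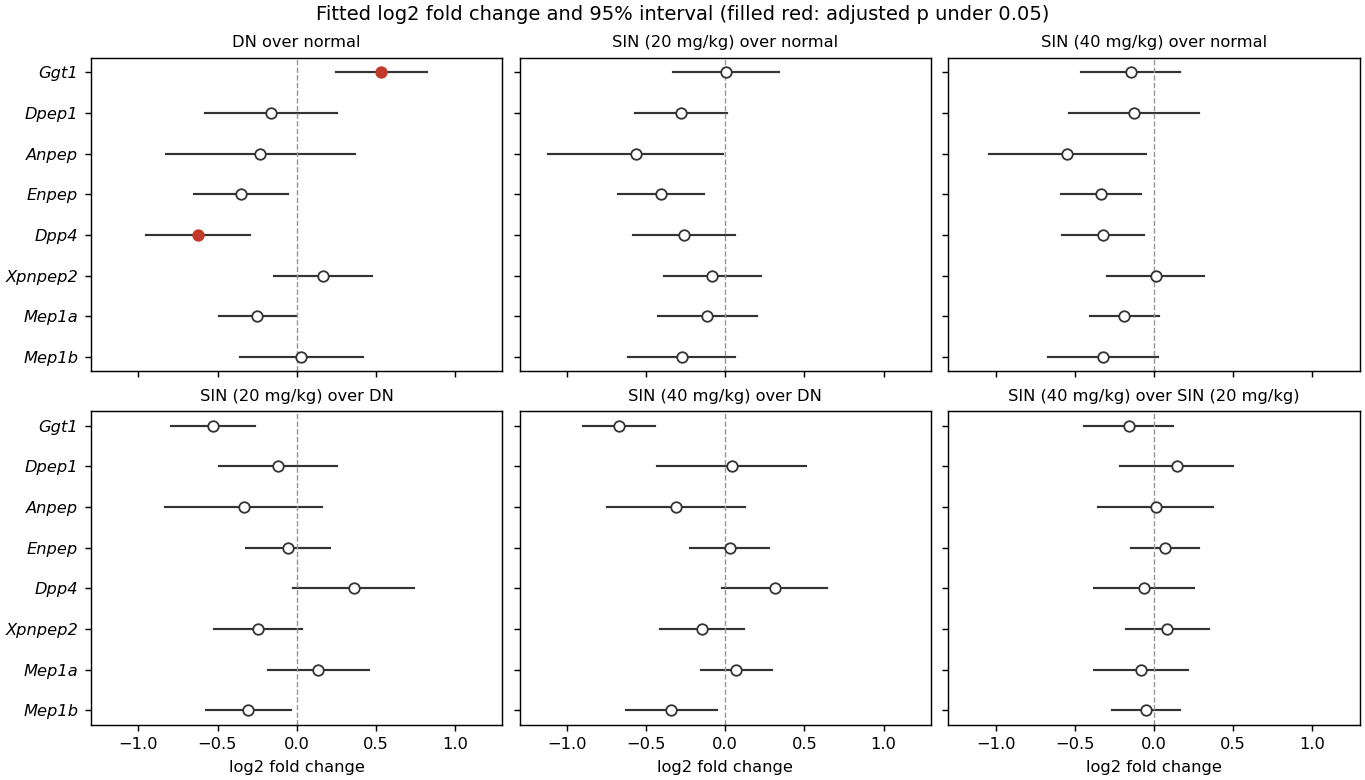
Fitted log2 fold change (points) with its 95% interval (lines) for each member in each of the 6 comparisons, with filled red points for an adjusted p under 0.05. Filled points occur for Ggt1 (0.53) and Dpp4 (-0.62) in DN over normal only, while the intervals of Ggt1 in both SIN over DN comparisons lie below 0.

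Against the normal group, no member passed the adjusted edgeR test in either SIN group. In SIN (20 mg/kg) over normal, 2.77% of 15877 genes were called higher and 3.58% lower, and Anpep and Enpep were lower at an unadjusted p under 0.05 (10.6% of genes). Enpep was at 329.6, 350.0, 411.4 and 357.4 CPM there, and 3 of these 4 rats lay below all normal rats. Its log2 fold change of -0.41 ± 0.12 (SE) had an adjusted p of 0.0829 in the edgeR fit and of 0.0196 by DESeq2. DESeq2 called this 1 member lower, as it did 5.88% of all genes. In SIN (40 mg/kg) over normal, 2.28% of 15735 genes were called higher and 3.69% lower, and Anpep, Enpep and Dpp4 were lower at an unadjusted p under 0.05 (11.5% of genes). DESeq2 called 0 members there. Dpp4 had a log2 fold change of -0.32 with a 95% interval from -0.58 to -0.06, and Anpep of -0.55 with an interval from -1.04 to -0.05. Ggt1 differed from the normal group by 0.0039 at 20 mg/kg and by -0.15 at 40 mg/kg, with intervals from -0.33 to 0.34 and from -0.46 to 0.17.

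Between both doses no member differed at an unadjusted p under 0.05, where 2.41% of 15657 genes were higher and 2.57% lower with SIN (40 mg/kg). After adjustment 0.00639% of genes, a single gene that is no member, were lower and none higher, and DESeq2 called 0 members. Ggt1 was lower by 0.16 on the log2 scale at the higher dose, with an interval from -0.44 to 0.12. The intervals of all 8 members included 0, among them those of Mep1b (-0.27 to 0.17), Enpep (-0.14 to 0.28) and Dpep1 (-0.21 to 0.50).

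The opposite position of Ggt1 and Dpp4 can be read within each rat, where library size cancels out. Per length, Ggt1 stood at 1.65 to 2.67 times Dpp4 in normal rats and at 4.06 to 6.08 times in DN rats. The SIN (20 mg/kg) rats held ratios of 1.67 to 3.26 and the SIN (40 mg/kg) rats of 1.81 to 2.62, both below all DN rats. The size of the ratios rests on the deposited lengths, but their order between rats does not. They were formed after the levels of both genes were known and carry no test.

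**Figure D4:**
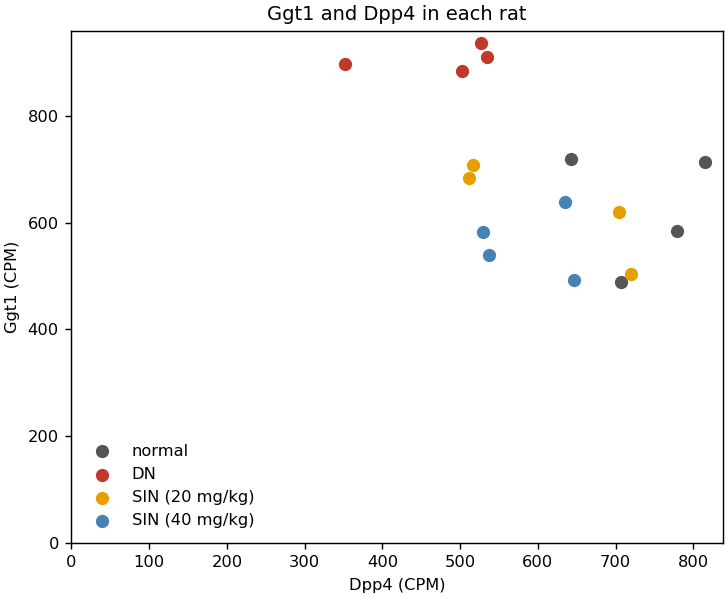
Ggt1 against Dpp4 in CPM (both axes from 0), with 1 point per rat and colours for the 4 groups. The 4 DN rats lie apart at the upper left of the other rats, with Ggt1 of at least 884.5 CPM and Dpp4 of at most 534.6 CPM.

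Over the 16 rats, Enpep followed the mean of the other 7 most closely (Pearson's r = 0.751 in log2 CPM, n = 16), whereas Ggt1 (0.181) and Dpp4 (0.282) followed it least. Among pairs, Ggt1 and Xpnpep2 had r = 0.717, Xpnpep2 and Dpep1 0.681, and Ggt1 and Dpp4 -0.572. These correlations pool the 4 groups, whose means differ. With the group means removed, 26 of 28 pairs were above 0, Ggt1 and Dpp4 had -0.281, Ggt1 and Enpep 0.435 (0.018 when pooled) and Ggt1 and Xpnpep2 0.807. All are descriptions of 16 libraries, without a test. Of 15203 other genes, the profile most like the mean of the members was that of Slc13a3 (r = 0.864), a sodium-coupled dicarboxylate transporter, followed by Lonp2 (0.861), Myo7a (0.854), Atf7ip (0.847) and Rasl12 (0.839).

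Among other peptidases of the cell surface, 17 of 25 listed genes were tested, and 1 was called higher and 5 lower in DN than in normal, where 8.74% of all genes were called higher and 10.8% lower, with a median log2 fold change of -0.41. Lnpep, an insulin-regulated aminopeptidase, was at 44.4, 41.0, 61.2 and 51.9 CPM in normal and at 30.3, 35.2, 32.9 and 26.1 CPM in DN rats. Every DN value of Lnpep was below every normal value, as was so for 13.0% of all genes tested. Lnpep fell by 0.68 on the log2 scale (adjusted p = 0.0168, edgeR's quasi-likelihood test). The gene Cpm, carboxypeptidase M, fell by 0.92 (adjusted p = 0.00475) and Adam10, a shedding protease, fell by 0.76. Of peptidases that cleave angiotensins, Ace had a log2 fold change of -0.41 (adjusted p = 0.145) and Mme, neprilysin, of -0.30 (adjusted p = 0.225), and neither passed in edgeR's test. In SIN over DN none of the 17 was called at either dose. The values of Lnpep there were 0.48 (unadjusted p = 0.00832) and 0.63 (unadjusted p = 0.00148), both in edgeR's quasi-likelihood test. They use the same DN rats as DN over normal, so they are not independent of the fall of Lnpep there. At an unadjusted p under 0.05, 2 of the 17 were higher and 2 lower at 20 mg/kg (9.20% and 6.24% of all genes). At 40 mg/kg 3 were higher and 2 lower (9.90% and 7.21%).

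Of 21 tested peptidases inside the cell, 2 were higher and 3 lower in DN and 16 did not pass, with a median of -0.08. These counts were near the shares over all genes (8.74% higher and 10.8% lower). Thop1, thimet oligopeptidase, was at 25.9, 26.6, 21.9 and 21.4 CPM in normal and at 46.4, 59.5, 44.2 and 51.0 CPM in DN rats, a rise of 1.07 on the log2 scale (adjusted p = 0.00285, quasi-likelihood test of edgeR). Tpp2, tripeptidyl peptidase 2, fell by 0.86, Prep, prolyl oligopeptidase, fell by 1.05 and Blmh, bleomycin hydrolase, fell by 0.65. None of the 21 was called in SIN over DN, where Thop1 had values of -0.42 and -0.52. Those values use the same DN rats as its rise in DN over normal and are not independent of it.

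Genes of glutathione turnover, the pathway of Ggt1, were not called in DN over normal (0 of 11 tested, median 0.19). Over all genes tested there, 8.74% were called higher and 10.8% lower. Lap3, an aminopeptidase that can split cysteinylglycine, had a log2 fold change of 0.27 (adjusted p = 0.0707), and Oplah, which opens the ring of 5-oxoproline, of 0.30 (adjusted p = 0.0879), both in the quasi-likelihood test of edgeR. In SIN (40 mg/kg) over DN, 0 of 12 were called, and 5 were lower and 0 higher at an unadjusted p under 0.05 (7.21% and 9.90% of all genes), with a median of -0.29 against 0.0067 over all genes. Ggct, gamma-glutamylcyclotransferase, was at 244, 160, 205 and 203 CPM in normal rats and at 114, 158, 149 and 190 CPM in DN rats. In SIN (40 mg/kg) rats Ggct was at 96.1, 71.2, 73.6 and 93.4 CPM, further from the normal values. Every SIN (40 mg/kg) value of Ggct was below every DN value, as was so for 4.91% of all genes tested. The log2 fold change of Ggct was -0.86 (unadjusted p = 0.000399, adjusted p = 0.175, edgeR's quasi-likelihood test). Gss and Gclc, which build glutathione, had values of -0.45 each. Gss averaged 514 CPM in normal, 585 CPM in DN and 424 CPM in SIN (40 mg/kg) rats, and Gclc 4779, 4132 and 2992 CPM. In SIN (40 mg/kg) over normal, 2 of 11 tested genes of this list were called lower and 0 higher (3.69% and 2.28% of all genes), with a median of -0.27. With SIN (20 mg/kg), 2 of 12 were lower at an unadjusted p under 0.05 (6.24% of all genes) and the median was -0.21.

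Uptake carriers, microvillus proteins and other surface enzymes of the brush border also differed in part. Over all genes tested in DN over normal, 8.74% were called higher and 10.8% lower. Of 5 carriers for peptides and cystine, Slc15a2, the high-affinity peptide transporter, fell in DN by 0.56 on the log2 scale (adjusted p = 0.0117, edgeR's quasi-likelihood test), and the other 4 did not pass. Of 13 tested scaffold genes 3 were higher and 1 lower in DN. Cdhr2 and Cdhr5, the cadherins that link microvilli at their tips, rose by 0.52 and 0.47, and Myo7b, a motor of the same complex, rose by 0.45, whereas Pls1, an actin bundler, fell by 0.43. Among 5 other surface enzymes, Nt5e, which forms adenosine, fell by 1.02 and Mgam, maltase-glucoamylase, fell by 1.13. None was called higher, but 3 of the 5 were above 0 and the median was 0.20. Of 6 transcription factors of the proximal tubule, 0 were called in DN over normal (median -0.20). In SIN over DN no gene of these lists was called at either dose.

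**Figure D5:**
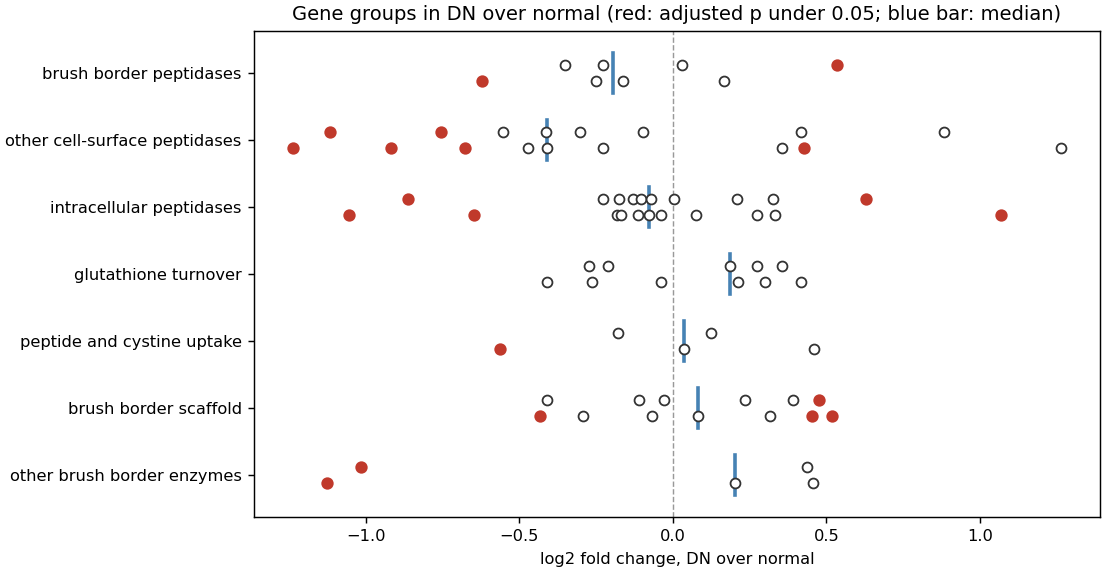
Log2 fold change of DN over normal (horizontal axis) for the 8 members and the tested genes of 6 other lists, with filled red points for an adjusted p under 0.05, open points otherwise and blue bars for the median of a list. The members (median -0.20) hold 1 red point on each side of 0, and other cell-surface peptidases (median -0.41) hold 5 red points below 0 and 1 above.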

How the data were processed

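RNA of kidney tissue from 16 rats was enriched with oligo(dT) and sequenced in paired ends on an Illumina instrument. Per the study's methods, SeqPrep and Sickle were used by the authors for trimming and TopHat for alignment, to the Rnor_6.0 rat genome. The submitters' processing notes also name Bowtie, RSEM and edgeR, without roles. The authors deposited estimated counts per gene, not normalized, and 74.3% of the nonzero values were whole. A further 4 library columns that no sample record names, and the authors' group means, were not used. The same table holds a gene length, which divided CPM for levels per kilobase. No step that keeps strand is described for the libraries, so reads of overlapping genes on opposite strands cannot be told apart.

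Estimated counts were rounded. Each of 6 comparisons was fitted on its own 8 rats with edgeR 4.0.16 (TMM, filterByExpr, quasi-likelihood test, two-sided), with R 4.3.3 and Benjamini-Hochberg adjustment over all genes tested. CPM of single rats used TMM factors over 16 rats, and log2 CPM a prior count of 2. The steps were tested on simulated data. Each rat was taken as a replicate, and p-values measure the spread between rats. Alternatives were DESeq2 1.42.0, RLE factors, no filter, a fit of all 16 rats, a minimum of 10 counts in every rat, a block for the replicate number, each rat left out, and CPM without factors. All 8 members were named whatever their values, with enzymes that cleave angiotensins (1 is not reported here), up to 4 genes per other list and comparison by smallest unadjusted p and the 5 genes of most similar profile. Cell type markers were named for their values. The members and lists were chosen with earlier results of these data known. Promoter sequences are from RefSeq (GRCr8), matched to all 8 members by gene number.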

Additional observations from a re-analysis of the deposited data

Results flagged for a closer look

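Among 32 sets of 4 rats (8 members in 4 groups), 3 held a rat far from the others of its group, and chance alone would flag about 1 in 20 sets. Anpep was at 1013 CPM in DN replicate 2, against 551 to 620 CPM in the other DN rats. Mep1b was at 146 CPM in DN replicate 1, against 200 to 203 CPM in the other DN rats. Xpnpep2 was at 255 CPM in SIN (20 mg/kg) replicate 1, against 319 to 331 CPM in the rest of that group.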

How the results depend on the processing

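Among the refitted log2 fold changes of members, 634 kept their direction and their side of the threshold, 24 changed sign, 8 lost a call and 6 gained it. In DN over normal, the replicate block left 0 of 2 members called (Ggt1 0.55, adjusted p = 0.0543; Dpp4 -0.63, adjusted p = 0.0658) and 1325 of 3074 genes; same-numbered rats did not deviate together (r from -0.27 to 0.05), so the numbers were not taken as pairs. Leaving out 1 rat gave 0 to 2 members and 769 (without normal replicate 4) to 3781 genes. All 16 rats in the fit gave 3 members (Enpep added, adjusted p = 0.0401) and 3705 genes, and DESeq2 gave 2 members and 4198 genes. Ggt1 was called in 10 of 14 alternatives (adjusted p from 0.000832 to 0.0760), as was Dpp4 (from 0.000894 to 0.0689). In SIN (20 mg/kg) over normal, DESeq2 called 1 member and 1726 genes against 0 and 1009, the fit of all 16 rats called 1 member, and leaving out 1 rat gave 0 to 1 (Enpep, without normal replicate 3) and 551 to 1230 genes. In SIN (40 mg/kg) over normal, DESeq2 called 1761 genes against 940, and leaving out 1 rat gave 462 to 1016. In SIN (20 mg/kg) over DN, where the main test called 0 members and 0 genes, DESeq2 called 1 and 221, no filter 2 genes, at least 10 counts in every rat 2 genes and all 16 rats 13 genes; leaving out 1 rat gave 0 genes. In SIN (40 mg/kg) over DN, DESeq2 called 1 member and 436 genes, all 16 rats 9 genes, and leaving out 1 rat gave 0 to 4. Between doses (1 gene), DESeq2 called 17 genes, all 16 rats 0, the replicate block 0, and leaving out 1 rat gave 0 to 5. The causes were not tested. The sign turned when 1 rat was left out for Mep1b in DN over normal (-0.046 to 0.21), Xpnpep2 (-0.18 to 0.011) and Ggt1 (-0.097 to 0.095) in SIN (20 mg/kg) over normal, Xpnpep2 in SIN (40 mg/kg) over normal (-0.082 to 0.10), Enpep (-0.069 to 0.078) and Dpep1 (-0.15 to 0.15) in SIN (40 mg/kg) over DN, and, between doses, Anpep (-0.087 to 0.17), Dpp4 (-0.14 to 0.028), Mep1a (-0.19 to 0.0025) and Dpep1 (-0.047 to 0.25). Without normalization factors Ggt1 in DN averaged 881 CPM. Depth gave every member at least 940 counts in each rat.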
